A study of Mus musculus with 7 samples.

Results

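Parvalbumin (PV) and vasoactive intestinal peptide (VIP) interneurons of the adult mouse cortex were compared by the accessibility of their chromatin, measured by ATAC-seq in 2 libraries of each cell type. ATAC-seq counts the cuts that a transposase makes in open DNA, so that reads gather at promoters and at distal gene regulatory elements. The unit of the comparison was the reference region, one of 323369 stretches of the mm10 (GRCm38) genome in which a peak had been called in at least one of the laboratory's cortical data sets. A region entered the test where its reads, scaled to the size of the library as CPM, reached 5.02 CPM in at least 2 of the 4 libraries, which 35377 of the 323369 regions did. These regions were tested in both directions with edgeR's quasi-likelihood test, and a region was called at a Benjamini-Hochberg adjusted p below 0.05.

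The PV libraries came from nuclei of Pv-Cre mice crossed to the Cre-dependent SUN1-2xsfGFP-6xMYC allele, and the VIP libraries from Vip-IRES-Cre mice crossed to the same allele. Nuclei tagged by the GFP fusion at the nuclear envelope were isolated from whole cortex of uninjected F1 animals aged 6 to 12 weeks, 1 animal per library. The labels give male animals, whereas the methods of the study speak of both sexes. Each cell type was thus reached through 1 driver line, and the cell type, the driver allele and the genetic background carried with it cannot be told apart in these libraries. A change in the mixture of tagged nuclei and a change in accessibility per nucleus cannot be told apart either. The 2 libraries of somatostatin (SST) interneurons, made from an Sst driver line crossed to the same reporter, entered no test and served to place another cell type between PV and VIP. A droplet RNA data set of visual cortex nuclei from AAV-injected C57BL/6J animals aged 6 to 10 weeks, deposited as 1 sample, was read beside the regions.

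PV interneurons are the fast-spiking basket and chandelier cells, which inhibit the soma and axon initial segment of pyramidal cells. They arise in the medial ganglionic eminence (MGE) under the transcription factors Nkx2-1 and Lhx6, an origin that they share with SST interneurons. VIP interneurons arise in the caudal ganglionic eminence (CGE), carry factors such as Prox1, Nr2f2 and Sp8, and largely inhibit other interneurons, so that their activity releases pyramidal cells from inhibition.

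The regions at which the cell types differed most firmly are shown by their DNA. Each is given as the 300 bases around the region's centre, plus strand of mm10 as read from the RefSeq GRCm38 sequence, with capitals marking matches to any of the 15 motif families searched. The first 3 are the PV-higher regions of smallest p that remained after 1 chromosome and windows over untranslated regions were set aside from printing, at chr2:9593940-9594239 (nearest start Gata3), chr4:95897582-95897881 (nearest start Hook1, within an intron of Fggy) and chr8:94913234-94913533 (an exon of Ccdc102a).
Gata3: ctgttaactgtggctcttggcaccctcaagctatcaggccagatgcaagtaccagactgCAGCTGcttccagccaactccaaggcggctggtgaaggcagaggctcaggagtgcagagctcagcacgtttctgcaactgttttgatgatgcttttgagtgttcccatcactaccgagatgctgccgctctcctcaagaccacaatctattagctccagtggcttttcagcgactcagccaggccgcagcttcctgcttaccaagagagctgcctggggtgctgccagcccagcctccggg
Hook1: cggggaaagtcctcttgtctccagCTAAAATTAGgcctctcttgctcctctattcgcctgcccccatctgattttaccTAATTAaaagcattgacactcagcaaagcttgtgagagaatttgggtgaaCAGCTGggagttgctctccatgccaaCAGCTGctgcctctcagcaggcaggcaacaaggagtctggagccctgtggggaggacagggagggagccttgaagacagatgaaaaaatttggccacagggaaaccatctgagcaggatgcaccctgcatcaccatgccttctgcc
Ccdc102a: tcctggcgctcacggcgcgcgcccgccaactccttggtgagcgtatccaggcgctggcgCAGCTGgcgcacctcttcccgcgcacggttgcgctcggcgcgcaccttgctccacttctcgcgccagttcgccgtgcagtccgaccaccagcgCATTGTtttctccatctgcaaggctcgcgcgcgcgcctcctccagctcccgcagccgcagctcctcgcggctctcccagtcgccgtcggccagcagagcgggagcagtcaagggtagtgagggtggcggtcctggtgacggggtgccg

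The next 3 are the VIP-higher regions chosen in the same way, all of them intergenic, at chr1:119256785-119257084 (nearest start Inhbb), chr2:93091679-93091978 (nearest start Prdm11) and chr12:12877628-12877927 (nearest start Mycn).
Inhbb: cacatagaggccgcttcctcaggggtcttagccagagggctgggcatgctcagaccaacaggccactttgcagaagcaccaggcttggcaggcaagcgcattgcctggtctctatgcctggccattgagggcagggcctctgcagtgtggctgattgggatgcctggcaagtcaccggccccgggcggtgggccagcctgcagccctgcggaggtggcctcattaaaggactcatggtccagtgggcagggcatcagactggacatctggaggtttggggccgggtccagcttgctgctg
Prdm11: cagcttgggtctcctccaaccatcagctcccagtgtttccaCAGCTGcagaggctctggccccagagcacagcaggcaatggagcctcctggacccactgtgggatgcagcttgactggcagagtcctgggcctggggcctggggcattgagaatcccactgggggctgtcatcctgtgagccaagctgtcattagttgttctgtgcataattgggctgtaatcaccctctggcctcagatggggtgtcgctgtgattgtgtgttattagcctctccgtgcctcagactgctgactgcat
Mycn: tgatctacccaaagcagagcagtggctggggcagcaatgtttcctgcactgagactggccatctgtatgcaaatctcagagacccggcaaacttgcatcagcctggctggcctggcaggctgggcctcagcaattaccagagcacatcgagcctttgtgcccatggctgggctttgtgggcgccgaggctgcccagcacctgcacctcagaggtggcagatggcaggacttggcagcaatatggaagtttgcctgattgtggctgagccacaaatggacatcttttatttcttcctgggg

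The last pair was chosen after the values were seen, since both lie near genes that define the cell types. They are the intronic region of Pvalb at chr15:78195511-78195810 and the intergenic region nearest to Prox1 at chr1:190259657-190259956.
Pvalb: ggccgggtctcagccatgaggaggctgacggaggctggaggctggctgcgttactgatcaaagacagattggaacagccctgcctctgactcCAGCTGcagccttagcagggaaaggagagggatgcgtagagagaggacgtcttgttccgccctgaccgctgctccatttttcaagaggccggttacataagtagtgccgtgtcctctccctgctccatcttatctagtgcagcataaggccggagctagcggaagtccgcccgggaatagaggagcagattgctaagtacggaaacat
Prox1: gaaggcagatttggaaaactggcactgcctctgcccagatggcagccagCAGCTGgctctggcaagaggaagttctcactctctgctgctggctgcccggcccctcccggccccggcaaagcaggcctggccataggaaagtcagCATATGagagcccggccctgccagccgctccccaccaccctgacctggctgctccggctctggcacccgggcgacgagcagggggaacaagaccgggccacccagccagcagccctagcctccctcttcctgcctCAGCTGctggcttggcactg

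The 4 libraries held between 1801883 and 2237095 reads on the reference regions, of which 66.0% and 69.1% in PV and 73.6% and 78.0% in VIP fell in the tested regions. Across the tested regions, log2 CPM correlated at r = 0.942 between the PV libraries and at r = 0.949 between the VIP libraries. Between the cell types r lay between 0.510 and 0.534. Regions are not independent replicates, and these correlations describe the libraries only.

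In total, 11160 regions (31.5% of those tested) were more accessible in PV and 11081 (31.3%) in VIP, so that 22241 (62.9%) were called in either direction. The median change was 1.69 on the log2 scale among PV-higher regions and -1.61 among VIP-higher regions, against a median standard error of 0.42. At 4-fold or more the counts were 4360 in PV and 4476 in VIP, and at 16-fold or more 806 and 993. No read was counted in either library of the other cell type at 163 PV-higher and 144 VIP-higher regions. Both libraries of one cell type lay above both of the other at 11138 of the PV-higher and 11052 of the VIP-higher regions. That arrangement was common in the whole table, where PV lay above VIP without overlap at 40.3% of tested regions and VIP above PV at 40.2%.

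The filter fed this balance from both sides. Of the tested regions, 8844 reached the minimum in both PV libraries but not in both VIP libraries, and 8475 did so in VIP alone. Such regions had to differ to some degree, and the filter largely set the direction of a call there. This holds too for the counts by gene and list below. The 16779 regions that reached the minimum in both libraries of both cell types were therefore also read on their own. Of these, 3939 (23.5%) were higher in PV and 4481 (26.7%) in VIP. Without PV replicate 1, which left 1 PV library, the filter passed 45577 regions. Although more were tested, fewer were called in each direction than with every library.

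**Figure D1:**
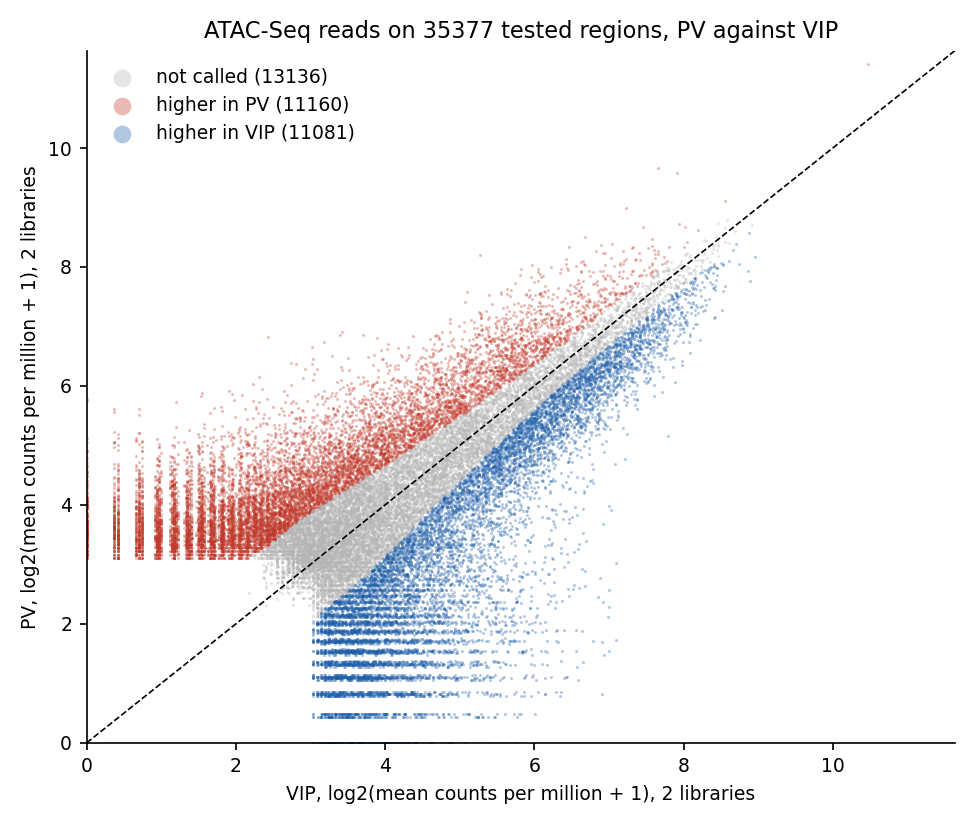
Each point is 1 of the 35377 tested regions, placed by log2(mean CPM + 1) of the VIP libraries on the horizontal and of the PV libraries on the vertical axis and coloured by its call. The 11160 regions higher in PV and the 11081 higher in VIP lie on either side of the diagonal, and the uncalled regions lie along it.

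The genes of the Cre drivers were read beside the labels. Pvalb encodes the calcium buffer for which PV cells are named. The region in its intron at chr15:78195158-78196165, 8576 bp from the start site, gave 15.8 and 32.8 CPM in PV and 2.01 and 1.18 CPM in VIP. Both PV libraries lay above both VIP libraries, by 3.87 ± 0.56 (SE) on the log2 scale (edgeR adjusted p = 4.43e-07). The Pvalb promoter gave 28.0 and 23.2 CPM in PV against 13.4 and 18.8 CPM in VIP, a change of 0.66 ± 0.31 that did not pass the test (edgeR adjusted p = 0.0618). With an offset for its 10 Mb window the promoter change was 0.89 and was called (edgeR adjusted p = 0.0126). The promoter of the gene was thus open in both cell types, and the large difference lay within its intron. That intronic region reached the filter's minimum through the PV libraries alone, so a call there could only be higher in PV.

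At Vip, which encodes the neuropeptide, both tested regions of its 13 reference regions were called. Both reached the filter's minimum through the VIP libraries alone, so a call could only be higher in VIP. The promoter at chr10:5638905-5639646 gave 0 and 1.60 CPM in PV and 17.4 and 21.8 CPM in VIP, from 2 and 63 reads. VIP exceeded PV there by a count ratio of 26.1 (95% interval 6.92 to 220.0, counting error only; edgeR adjusted p = 7.28e-07). The region 11795 bp beyond the start site gave 1.43 and 0 CPM in PV and 8.03 and 7.64 CPM in VIP (edgeR adjusted p = 1.58e-04).

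Genes of the PV and fast-spiking list had 83 tested regions, of which 40 (48.2%) were higher in PV and 16 (19.3%) in VIP, against 31.5% and 31.3% over all tested regions. Their median change was 0.75 on the log2 scale, against 0.01 over all tested regions. The list covered synaptic release, Kv3 channels and other genes of these cells, and only Cox6a2 among its 18 genes had no tested region. Syt2 encodes the fast calcium sensor of release at PV terminals, and 7 of its 8 regions were higher in PV. One in its intron gave 20.1 and 19.2 CPM in PV and 1.34 and 0 CPM in VIP, from 52 and 2 reads, a count ratio of 31.4 (95% interval 8.27 to 266.3). Of the 2 Syt2 promoter regions, that at chr1:134646154 gave 12.2 and 16 CPM in PV and 9.36 and 6.47 CPM in VIP and was not called, while that at chr1:134708793 gave 12.9 and 12.8 CPM against 4.68 and 7.06 CPM and was called (log2 change 1.10 ± 0.45, edgeR adjusted p = 0.0306). Ank1, an ankyrin that ties membrane proteins to spectrin, gave 40.2 and 36.8 CPM against 4.68 and 2.94 CPM in an intron, a change of 3.33 ± 0.38 (edgeR adjusted p = 6.05e-09). Tac1, the substance P precursor, had 1 tested region, its promoter, with 13.6 and 16 CPM in PV and 2.01 and 3.53 CPM in VIP, a difference of 2.36 ± 0.50 on the log2 scale (edgeR adjusted p = 1.17e-04). With an offset for its 10 Mb window, in which most called regions were higher in PV, the Tac1 change was 1.05 and was not called (edgeR adjusted p = 0.0787).

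Some regions of the same list went the other way. Near Pthlh, a secreted peptide gene, 1 region was higher in PV and 5 were higher in VIP, led by one with 4.30 and 8.80 CPM in PV and 38.8 and 45.9 CPM in VIP. A region 10165 bp from Mybpc1, a myosin-binding protein gene, gave 2.87 and 2.40 CPM in PV and 53.5 and 72.9 CPM in VIP (log2 change -4.54 ± 0.36, edgeR adjusted p = 2.19e-12). The other 3 tested regions of Mybpc1 were higher in PV, the promoter by 2.64 ± 0.38 on the log2 scale (edgeR adjusted p = 3.92e-07).

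The list of MGE lineage regulators also took in other genes such as Elfn1, which encodes a postsynaptic protein, and had calls in both directions. Of its 72 tested regions, 22 (30.6%) were higher in PV, near the 31.5% over all tested regions, and 32 (44.4%) in VIP, against 31.3%, with a median change of -0.60. Elfn1 held 12 of the VIP-higher and 0 of the PV-higher regions, and Maf 12 and 3. The lean to VIP thus rests on these genes, and the other genes of the list as a set did not share it. Lhx6, the factor that MGE interneurons keep into adulthood, had 4 tested regions, some of which overlap, and all were higher in PV. All reached the filter's minimum through the PV libraries alone, so a call could only be higher in PV. The Lhx6 promoter at chr2:36105106-36105881 gave 15.8 and 28.8 CPM in PV and 0.669 and 0.588 CPM in VIP. The SST libraries gave 30.0 and 21.7 CPM there, the first above both PV libraries and the second between them. The 2 tested regions near Nkx2-1, which specifies the MGE, were also higher in PV.

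Maf and Elfn1 held most of the VIP-higher regions of that list. Maf encodes a factor expressed in MGE interneurons, and 12 of its 20 tested regions were higher in VIP while 3 were higher in PV. The VIP-higher ones lay up to 576 kb from the start, those from 492 kb on in introns beyond intergenic DNA. The strongest, 292686 bp from the start at chr8:115414007-115414813, gave 3.59 and 4.80 CPM in PV and 109.7 and 129.9 CPM in VIP (log2 change -4.82 ± 0.27, edgeR adjusted p = 3.06e-16). Elfn1 encodes a postsynaptic protein that shapes input to SST interneurons, and 12 of its 13 regions were higher in VIP with none higher in PV. These lay 2.0 to 194 kb downstream of its start, those from 105 kb on in introns beyond intergenic DNA at 69.6 kb. With offsets for windows of 10 Mb, 10 of the 13 regions were higher in VIP and none in PV. The leading one, inside an intron of the neighbouring Mad1l1, gave 0.717 and 2.40 CPM in PV and 44.8 and 45.3 CPM in VIP. The Elfn1 promoter gave 4.30 and 4.80 CPM in PV and 7.36 and 7.06 CPM in VIP and was not called.

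Satb1, a chromatin organiser needed in MGE interneurons, was mixed, with 3 of its 8 regions higher in PV and 2 in VIP. One intronic region gave 11.5 and 10.4 CPM in PV and no read in either VIP library, which is at least 11.7-fold higher in PV with a floor of 3 reads over the VIP group.

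Genes that mark VIP cells and other CGE-derived interneurons had 55 tested regions, 11 (20%) higher in PV and 33 (60%) in VIP, against 31.5% and 31.3% over all tested regions, with a median change of -1.62. Htr3a, a subunit of the ionotropic serotonin receptor, stood out by size. The region 17934 bp upstream of it gave 0 and 1.60 CPM in PV and 76.9 and 85.3 CPM in VIP, from 2 and 260 reads, a count ratio of 107.6 (95% interval 29.5 to 893.2). Its promoter differed far less, with 7.17 and 8.80 CPM in PV and 18.7 and 19.4 CPM in VIP. Synpr, a synaptic vesicle protein, gave 0.717 and 0 CPM in PV and 26.1 and 24.7 CPM in VIP at its promoter, and Cxcl14, a chemokine, gave 3.59 and 0.800 CPM against 23.4 and 30.6 CPM. All 4 regions near Calb2, the calretinin gene, were higher in VIP, its promoter by 2.15 ± 0.29 on the log2 scale (edgeR adjusted p = 1.68e-07).

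Adarb2, an RNA-editing family gene used as a CGE marker, ran against its list. The promoter of Adarb2 was its only tested region and gave 37.3 and 27.2 CPM in PV and 8.03 and 9.41 CPM in VIP, 1.88 ± 0.34 higher in PV (edgeR adjusted p = 1.29e-05). With an offset for its 10 Mb window, whose median change was 1.69, the Adarb2 change was 0.38 and was not called (edgeR adjusted p = 0.332).

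The regulators of the CGE lineage had 96 tested regions, 17 (17.7%) higher in PV and 52 (54.2%) in VIP, against 31.5% and 31.3% over all tested regions, with a median change of -1.07. Of the 14 regions nearest to Prox1, a homeobox factor that CGE interneurons need to mature, 12 were higher in VIP and 1 in PV, over a span of 382 kb. The region whose sequence is given above measured 2.87 and 4.80 CPM in PV and 42.8 and 48.2 CPM in VIP (log2 change -3.56 ± 0.37, edgeR adjusted p = 6.85e-10), while SST lay at 7.70 and 4.75 CPM. An exonic region of Prox1 gave 1.43 and 1.60 CPM in PV and 12.7 and 11.2 CPM in VIP, with a mean phyloP of 2.42. Near Nr2f2 (COUP-TFII), 10 of 12 regions were higher in VIP and 2 in PV, and all 3 near Sp8 were higher in VIP. Nr2f1 (COUP-TFI), a factor used more widely in the cortex, had 7 regions higher in PV and 3 in VIP of 13, or 3 and 4 with offsets for windows of 10 Mb. The Nr2f1 region of smallest p gave 132.7 and 120.8 CPM in PV and 38.8 and 42.9 CPM in VIP. A region that overlaps it was called the other way, with a log2 change of -1.15 ± 0.19.

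**Figure D2:**
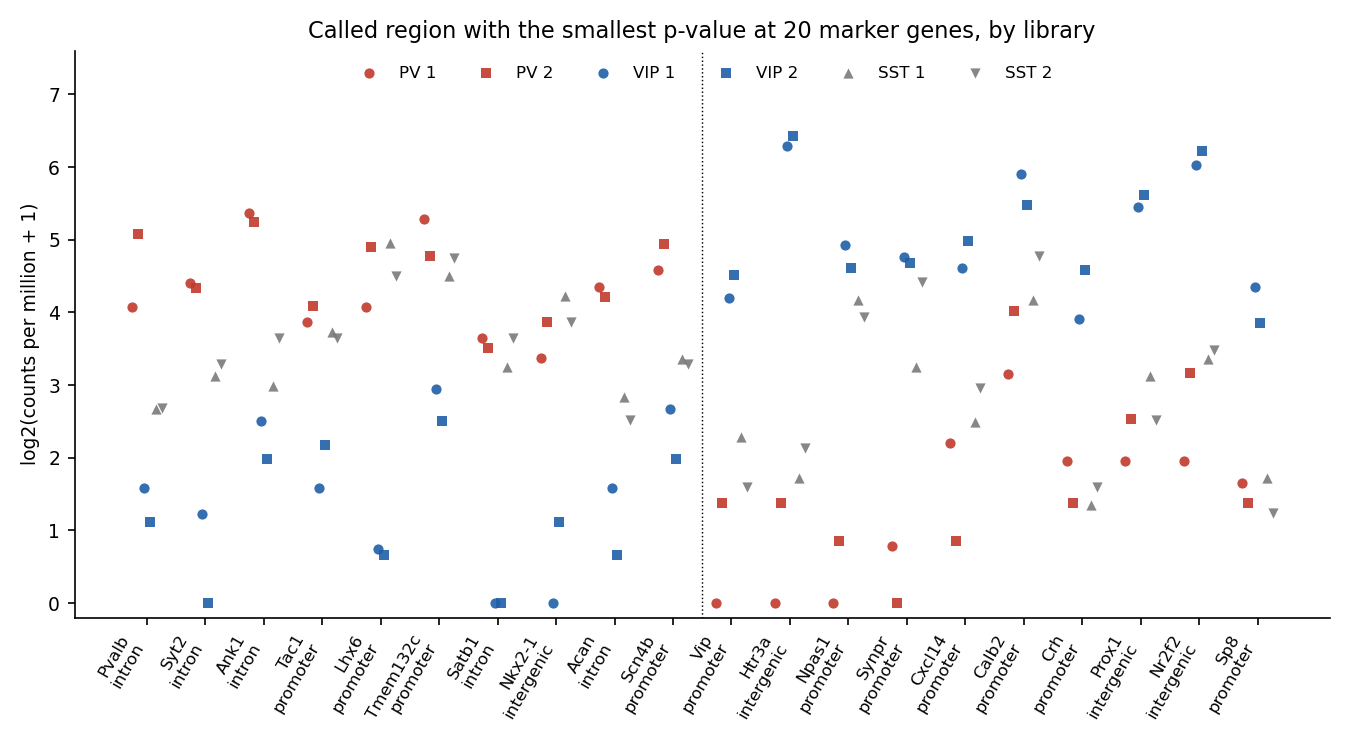
Points give log2(CPM + 1) of each PV, VIP and SST library at the called region of smallest p for 20 marker genes, 10 whose region is higher in PV left of the dotted line and 10 whose region is higher in VIP right of it. The Lhx6 promoter sat at 15.8 and 28.8 CPM in PV and below 1 CPM in VIP, and the Htr3a region at 76.9 and 85.3 CPM in VIP and at 0 and 1.60 CPM in PV.

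Genes shared by most interneurons had 15 of 56 regions (26.8%) higher in PV, 19 (33.9%) in VIP and a median change of 0.01, the shares being near the 31.5% and 31.3% over all regions. DESeq2, which called 21.2% and 21.9% of all regions, called 8 and 11 of them. All 4 tested regions nearest Dlx1 and 4 of 7 nearest Dlx2 were higher in VIP, whereas 2 of 3 nearest Dlx5 and 2 of 4 nearest Dlx6 were higher in PV. The Dlx homeobox factors act in interneuron precursors of both eminences. Of 3 Dlx1 promoter regions, that of smallest p gave 10.8 and 7.20 CPM in PV and 25.4 and 29.4 CPM in VIP (log2 change -1.59 ± 0.35), that of most reads gave 43.7 and 25.6 CPM against 62.2 and 56.4 CPM (-0.76 ± 0.21), and the Dlx5 promoter gave 35.9 and 36.0 CPM in PV and 12.7 and 12.9 CPM in VIP (1.48 ± 0.29). The median change over the 10 Mb around Dlx5 and Dlx6 was 1.58, and with offsets for such windows none of their regions was called higher in PV, 1 near Dlx5 was called higher in VIP, and 3 regions each of Dlx1 and Dlx2 were called higher in VIP. For Gad2, an enzyme of GABA synthesis, the promoter gave 36.6 and 53.6 CPM against 29.4 and 30.6 CPM, 0.57 ± 0.23 higher in PV (edgeR adjusted p = 0.0298).

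The perineuronal net is a matrix of proteoglycans that wraps many PV cells, and its genes had 23 of 56 regions (41.1%) higher in PV and 17 (30.4%) in VIP, against 31.5% and 31.3% over all regions. All 3 called regions of the 5 nearest Acan, the aggrecan gene, were higher in PV, one intronic region giving 19.4 and 17.6 CPM against 2.01 and 0.588 CPM (log2 change 3.80 ± 0.58, edgeR adjusted p = 1.06e-06). Has3, a hyaluronan synthase, had 4 regions higher in PV and none in VIP. Adamts5, a protease that cuts such proteoglycans, went the other way in an exon, with 0.717 and 0.800 CPM in PV and 26.8 and 28.8 CPM in VIP. Among the Kv3, sodium and other channels of fast spiking, 18 of 57 regions (31.6%) were higher in PV, near the 31.5% over all regions, and 11 (19.3%) in VIP. The promoter of Scn4b, a sodium channel subunit linked to resurgent current, gave 23.0 and 29.6 CPM in PV and 5.35 and 2.94 CPM in VIP (edgeR adjusted p = 2.54e-06). Scn1a, the Nav1.1 gene, had 5 tested regions, 1 higher in PV and 1 in VIP. The PV-higher one, at a promoter, changed by 1.44 ± 0.47 on the log2 scale (edgeR adjusted p = 0.00865), and the VIP-higher one was intergenic, at 2.87 and 3.20 CPM in PV and 40.8 and 26.5 CPM in VIP, 3.43 ± 0.44 lower in PV on the log2 scale.

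Receptors for acetylcholine and serotonin, through which ascending and basal forebrain fibres reach these cells, had 13 of 42 regions higher in PV (31.0%) and 16 in VIP (38.1%), near the 31.5% and 31.3% over all regions. At Chrna4, a nicotinic subunit, a region gave no read in PV and 18.1 and 15.9 CPM in VIP, at least 14.9-fold higher in VIP with the floor of 3 reads. Of 5 regions near Chrm3, a muscarinic receptor, 3 were higher in PV and 2 in VIP, or 2 and 2 with offsets for windows of 10 Mb. An intronic one gave 35.9 and 33.6 CPM in PV and 4.01 and 3.53 CPM in VIP, and one 292691 bp from the start was lower in PV by 1.94 ± 0.32 on the log2 scale. The Chrm3 RNA lay at 0.662 UMIs per 10000 in Pvalb nuclei and 1.81 in Vip nuclei. The SST and NPY list had 11 of 24 regions (45.8%) higher in PV and 6 (25.0%) in VIP.

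**Figure D3:**
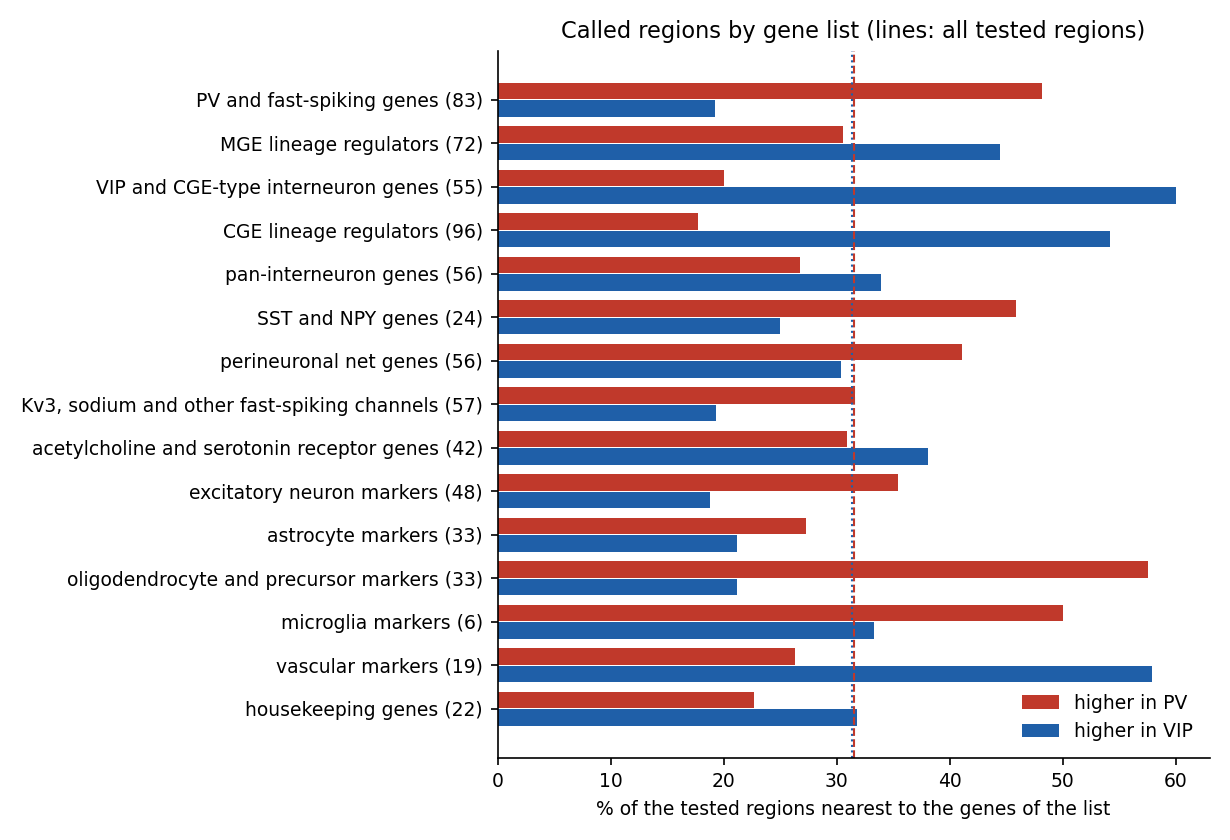
For each of the gene lists, bars starting at 0 give the percent of its tested regions called higher in PV and higher in VIP, beside the same shares over all tested regions (31.5% and 31.3%). The VIP and CGE lists lean to VIP (33 of 55 and 52 of 96 regions) and the PV list leans to PV (40 of 83). Other lists lean too, among them the oligodendrocyte and precursor list to PV (19 of 33). The vascular (11 of 19) and MGE (32 of 72) lists lean to VIP.

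Regions near markers of cells outside the sort were also read, against 31.5% and 31.3% called over all regions. Sums of CPM took in all reference regions nearest to the genes, tested or not, scaled by the reads in tested regions. Tested regions held 69.1% and 66.0% of the PV reads and 73.6% and 78.0% of the VIP reads, so untested regions weigh more in the PV sums. On that scale, regions near excitatory neuron genes summed to 1577 and 1644 CPM in PV and 1314 and 1213 CPM in VIP. Of 48 tested regions, 17 (35.4%) were higher in PV and 9 (18.8%) in VIP. Among regions inside a gene body, where 33.4% were higher in PV and 27.2% in VIP over all genes, the excitatory list had 4 and 3 of 17. Regions near oligodendrocyte and precursor genes summed to 757 and 800 CPM in PV and 641 and 563 CPM in VIP, with 19 of 33 (57.6%) higher in PV and 7 (21.2%) in VIP. Inside a gene body the oligodendrocyte and precursor list had 10 of 19 (52.6%) higher in PV and 3 in VIP. DESeq2, which called 21.2% of all regions higher in PV, called 7 of the excitatory and 9 of the oligodendrocyte regions so. Astrocyte genes gave 9 of 33 (27.3%) in PV and 7 (21.2%) in VIP, both below the shares over all regions, and 1 and 4 of 13 inside a gene body, while microglial genes had only 6 tested regions, 3 higher in PV and 2 in VIP, or 3 and 6 of the 9 inside their gene bodies. Vascular genes had 5 of 19 (26.3%) higher in PV and 11 (57.9%) in VIP, or 3 and 7 with DESeq2, at summed values of 506 to 522 CPM in PV and 547 to 576 CPM in VIP. Inside their gene bodies 1 of 7 was higher in PV and 5 in VIP. No tested region was nearest to Slc17a6, Gfap, Mag, Cx3cr1, Tmem119 or Flt1. Housekeeping genes had 5 of 22 higher in PV and 7 in VIP, and the Gapdh promoter gave 75.3 and 75.2 CPM in PV and 123.1 and 117.6 CPM in VIP. The part of other cells in the PV and VIP differences was not tested.

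The regions with the smallest p in PV lay near genes outside the lists. The intergenic region 284510 bp from Gata3, a zinc-finger factor, gave 110.4 and 112.8 CPM in PV and 4.68 and 4.12 CPM in VIP (log2 change 4.64 ± 0.26, edgeR adjusted p = 3.06e-16). SST lay between, at 53.2 and 65.8 CPM. The region inside Fggy whose nearest start is Hook1 gave 104.7 and 107.2 CPM in PV and 7.36 and 8.82 CPM in VIP, and the exon of Ccdc102a gave 106.1 and 124.0 CPM against 11.4 and 7.64 CPM. Promoters made up 3 of the 10, among them that of Rbbp8, a DNA end-resection factor, with 269.6 and 313.6 CPM in PV and 37.5 and 37.6 CPM in VIP. In the promoter of Fbxo15 the SST libraries disagreed, at 107.8 and 8.82 CPM, where PV had 104.7 and 132.0 CPM and VIP 9.36 and 10.00 CPM. Vsig8, Gm5148, Palld, Cpeb2 and Poli completed the 10.

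The 10 VIP regions of smallest p were intergenic in 8 cases and exonic in 2. The region 165313 bp from Inhbb, an activin subunit, gave 1.43 and 3.20 CPM in PV and 127.1 and 144.1 CPM in VIP (log2 change -5.85 ± 0.29, edgeR adjusted p = 8.82e-17). SST lay at 3.08 and 4.07 CPM, beside PV. The region near Prdm11 gave 0.717 and 0.800 CPM in PV and 105.0 and 132.3 CPM in VIP, and that near Mycn 2.87 and 1.60 CPM against 127.1 and 110.5 CPM. An exon of Shank3, the postsynaptic scaffold, gave 7.89 and 6.40 CPM in PV and 125.8 and 144.7 CPM in VIP, and had a mean phyloP of 1.19. Mfge8, Rybp, Maf, Pdcd6ip, Vwde and Glyctk completed the 10. The SST libraries did not exceed 12.9 CPM at any of the 10.

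The genes with most PV-higher regions were Celf4 (16 of 42 tested, 38.1%), Tenm3 (15 of 22, 68.2%), Myc (15 of 23, 65.2%), Klhl29 (14 of 33, 42.4%) and Sox2 (12 of 23, 52.2%), against 31.5% over all tested regions. In VIP they were Gse1 (29 of 45, 64.4%), Fam19a5 (14 of 25, 56.0%), Elfn1 (12 of 13, 92.3%), Prox1 (12 of 14, 85.7%) and Sall1 (12 of 17, 70.6%), against 31.3%. The 29 regions of Gse1, a gene of a chromatin complex, lay within 346 kb. Opposite calls stood beside the same gene in many cases. Of 4738 genes with at least 2 called regions, 2855 (60.3%) had regions of both directions, and of 988 genes with at least 5, 892 (90.3%) did. Calls were split about evenly over all regions, so these counts describe the table and show nothing particular to the genes.

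The share of called regions and the size of change differed between positions, as did the level, the median log2 mean CPM of PV-higher regions being 4.94 at promoters and 3.07 elsewhere. Among 14495 promoter regions, within 1 kb of a start, 26.5% were higher in PV and 27.6% in VIP, and the median size of change was 0.63 on the log2 scale. Among 9601 intronic regions the shares were 36.8% and 32.4% with a median size of 1.59, and among 9788 intergenic regions 33.4% and 36.6% with 1.57. The median distance to a start was 12056 bp for PV-higher, 11611 bp for VIP-higher and 914 bp for uncalled regions. The 1493 exonic regions were higher in PV in 34.3% and in VIP in 25.7% of cases. Introns and exons thus held more PV-higher than VIP-higher regions and intergenic DNA the reverse. The balance between the cell types was not tested by position.

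Conservation was read as the mean phyloP of a region over placental mammals, from the deposited table. In PV-higher regions 1879 (16.8%, 95% Clopper-Pearson interval 16.1 to 17.5) exceeded 0.5, and in VIP-higher regions 2167 (19.6%, 18.8 to 20.3) did. Uncalled regions reached 20.8% and reference regions outside the test 10.2%. Away from promoters 13.7% (13.0 to 14.6) of PV-higher, 17.3% (16.4 to 18.2) of VIP-higher and 16.6% (15.7 to 17.6) of uncalled regions exceeded 0.5, so the PV-higher share was the lowest in both cases while VIP-higher and uncalled regions changed places. At promoters the shares were 22.7%, 23.5% and 25.0%. Split by conservation, distal regions with phyloP above 1 were higher in PV in 26.7% and in VIP in 36.8% of cases, whereas for phyloP between 0 and 0.25 the shares were 37.4% and 32.6%. Below 0 they were 34.7% and 32.2%. Promoters with phyloP above 1 had the reverse balance, 28.5% higher in PV and 22.9% in VIP, as had those below 0 (29.8% and 25.3%). The neighbouring promoter bins did not, with 23.0% and 27.1% for 0.5 to 0.75 and 27.5% and 30.0% for 0.75 to 1. The intervals cover counting error only, and neighbouring regions are not independent.

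**Figure D4:**
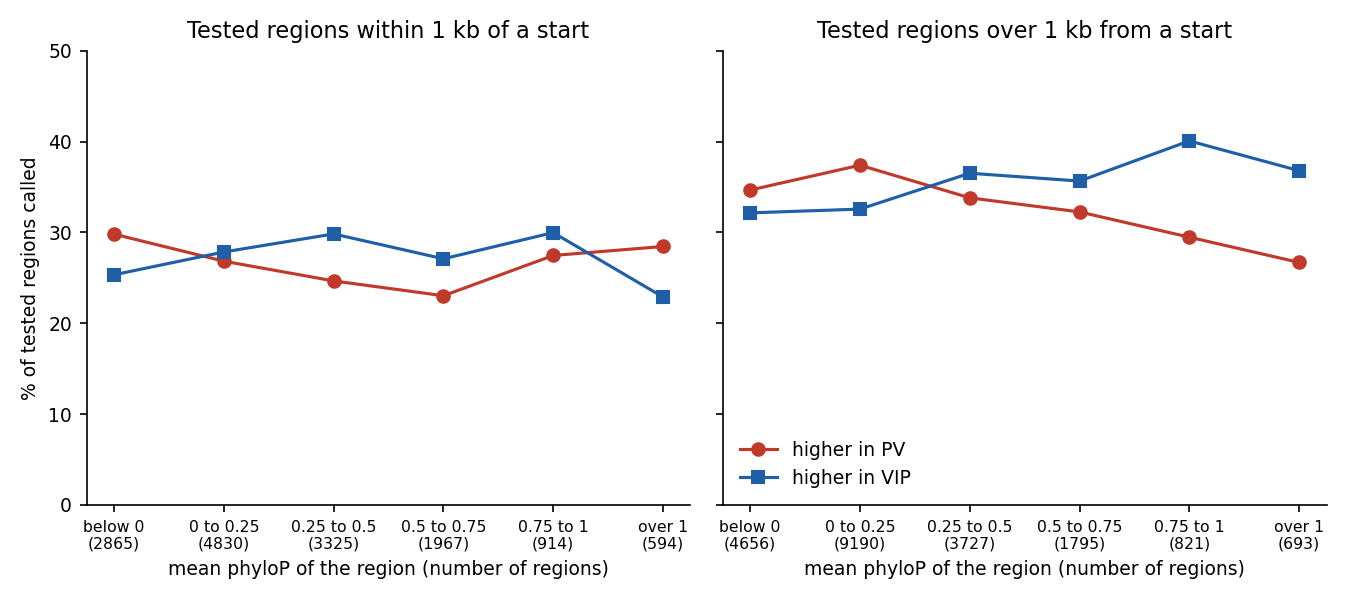
The percent of tested regions called higher in PV and higher in VIP is plotted by bins of mean phyloP, for regions within 1 kb of a start on the left and for those over 1 kb away on the right. On the right the PV share falls from 37.4% at phyloP 0 to 0.25 to 26.7% above 1, while the VIP share lies between 32.2% and 40.1%.

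The SST libraries were placed between PV and VIP by their log2(CPM + 1) at the called regions. SST lay nearer to PV at 68.5% of PV-higher and 66.8% of VIP-higher regions, the latter 77.4% for SST replicate 1 and 56.7% for replicate 2. Away from promoters it did so at 63.1% and 80.8%, and at regions changed by at least 4-fold at 68.0% and 86.7%. Across all tested regions SST correlated with PV at r between 0.835 and 0.877 and with VIP between 0.626 and 0.683, and PV with VIP between 0.510 and 0.534. These regions were chosen and called by PV and VIP reads alone, 8844 reaching the minimum in both PV libraries only and 8475 in both VIP libraries only. That choice can lower r between PV and VIP more than r with SST. A place of SST between them is thus partly set by the choice of regions. The SST libraries differed from one another, correlating at 0.907. At promoters of PV-higher regions SST replicate 1 was nearer to PV in 89.2% and replicate 2 in 50.2%. At promoters higher in VIP SST was nearer to PV in only 42.0%, at 66.4% for replicate 1 and 24.9% for replicate 2, so values at promoters depend on the library. At distal VIP-higher regions the shares were 83.6% and 74.8%.

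The deposited peak lists gave the comparison by presence. They and the authors' 0 or 1 marks differ, since listed peaks overlapped 26693 tested regions in PV replicate 1 and 26842 in VIP replicate 1 where 27557 and 29400 were marked, and the lists were used. A peak in both PV libraries and in neither VIP library overlapped 2994 (26.8%) of the PV-higher regions, and the reverse 4108 (37.1%) of the VIP-higher regions. Peaks were present in all 4 libraries at 47.9% of PV-higher, 43.4% of VIP-higher and 67.2% of uncalled regions. The remaining called regions had a peak in some other combination of the libraries or in none.

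Short sequence motifs were counted on both strands in the 300 bases around the centre of distal regions. The E-box CAGCTG, a site type of bHLH factors, was in 38.5% of PV-higher, 50.3% of VIP-higher and 38.8% of uncalled distal regions. Over all reference regions, promoters included, it was in 26.3%. ACAATG, the core of SOX sites, was in 8.54%, 18.1% and 9.68%, and the MEF2 form, CTA and TAG with 4 bases of any kind between them, in 5.14%, 3.76% and 4.11%. Over all reference regions these shares were 13.0% for ACAATG and 4.04% for the MEF2 form. The homeodomain core TAATTA was in 5.38%, 6.94% and 4.75%, but over whole distal regions in 18.0%, 17.5% and 16.1%, where PV-higher regions came first. The MAF form, TGCTGAC and GCA with 3 bases of any kind between them, was rare, in 0.615% of PV-higher, 0.254% of VIP-higher and 0.247% of uncalled regions. The sequences printed above show the spread of such matches: the Hook1 window holds 2 CAGCTG, 1 MEF2 and 1 homeodomain match, the Prox1 window 2 CAGCTG and 1 CATATG match, and the Inhbb and Mycn windows none. A match is a description of the letters and says nothing of binding.

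RNA was read in nuclei gated by single genes, since the droplet data belong to 1 sample and hold no deposited cell types. In 10 libraries with 32335 nuclei over 200 UMIs, 458 nuclei carried Gad1 or Gad2 and Pvalb but no Vip, and 332 carried Gad1 or Gad2 and Vip but no Pvalb, with no UMI of Sst or Slc17a7 allowed in either, and with medians of 1257 and 762 UMIs. The methods of the study take the nuclei from 2 animals, to which the labels do not tie the libraries, so the nuclei were pooled and no test between animals was made. The intervals are exact Poisson intervals that cover counting error only. Syt2 gave 5.88 UMIs per 10000 (5.29 to 6.52) in Pvalb nuclei and 0.204 (0.0750 to 0.445) in Vip nuclei. Lhx6 gave 0.517 and no UMI. On the other side Prox1 gave 0.0485 and 3.20, Nr2f2 0.0969 and 2.96, Htr3a no UMI and 4.19, and Elfn1 0.0323 and 2.39. These genes had more called regions in the cell type with more RNA.

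Other genes did not follow the regions nearest to their starts. Maf, with 12 regions higher in VIP and 3 in PV, gave 3.67 (3.21 to 4.18) UMIs per 10000 in Pvalb nuclei and 3.07 (2.47 to 3.77) in Vip nuclei, intervals that overlap. Adarb2, whose promoter was higher in PV, gave 0.0162 in Pvalb nuclei and 1.36 in Vip nuclei. Gse1, with 29 VIP-higher regions, gave 0.662 and 0.75 with overlapping intervals. Pthlh gave 0.339 in Pvalb nuclei and 2.76 in Vip nuclei, the same side as its 5 VIP-higher regions. Over all 7869 genes with at least 20 UMIs, 55.9% were higher in Pvalb nuclei. Among 310 genes with at least 3 more PV-higher than VIP-higher regions 61.9% were, and among 281 genes with at least 3 more VIP-higher regions 32.7% were. By another rule, genes whose called promoter regions were all higher in PV were higher in Pvalb nuclei in 59.8% of 1811 cases, and those all higher in VIP in 52.9% of 2288. For regions over 1 kb from a start the same shares were 59.8% of 1012 and 44.7% of 834.

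The balance of calls varied along the genome. On chromosome 13 the median change was 0.61 on the log2 scale, and 48.2% of 1601 regions were higher in PV and 23.9% in VIP. Chromosomes 16, 17 and 7 lay on the other side, with medians of -0.39, -0.39 and -0.34. Chromosome 13 held 5.41% and 5.18% of the reads in PV, 4.11% and 4.13% in VIP and 5.18% and 5.12% in SST. In 253 windows of 10 Mb with at least 30 tested regions, the median exceeded 0.5 in 35 and lay under -0.5 in 13, with the same sign in all 4 pairs of a PV with a VIP library. The window at 0 to 10 Mb of chromosome 6, which holds Tac1, Dlx5 and Dlx6, had a median of 1.58, with 40 of 58 regions higher in PV and 7 in VIP. The window at 0 to 10 Mb of chromosome 13, which holds the Adarb2 promoter, had a median of 1.69. On the VIP side, the windows that hold the leading regions of Maf, Prox1 and Nr2f2 and those of Gse1 had medians between -0.52 and -0.62.

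A fit with an offset for each window, chosen after the data were seen, called 10675 regions higher in PV (30.2%) and 10806 in VIP (30.5%), of which 9627 and 9642 were also called without the offsets. Under it the counts near Nr2f1 became 3 higher in PV and 4 in VIP, where 7 and 3 had been called. Near Maf they became 4 and 9, near Nr2f2 2 and 9, near Elfn1 0 and 10, and near Gse1 4 and 26. Those of Prox1 (1 and 12), Htr3a (0 and 4), Lhx6 (4 and 0) and Syt2 (7 and 0) were the same in number. What lies behind the differences between chromosomes was not tested.

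**Figure D5:**
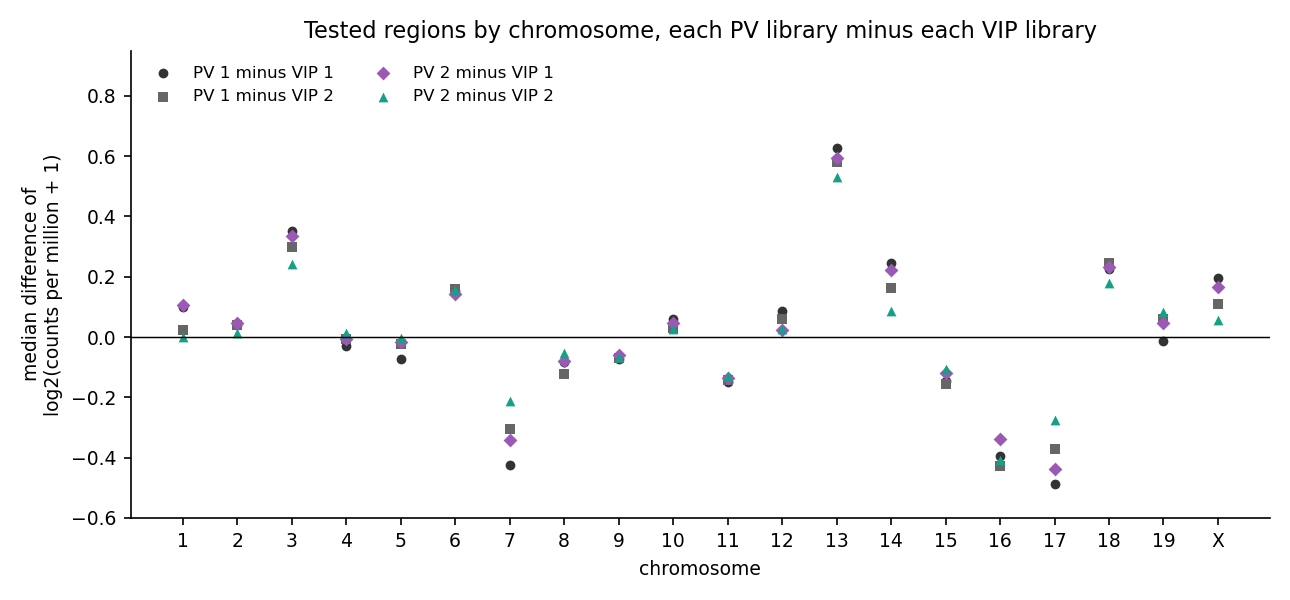
For each chromosome, 4 points give the median difference of log2(CPM + 1) over its tested regions, 1 for each pair of a PV library minus a VIP library. All 4 points lie above 0 on chromosome 13, where the fitted median was 0.61, and below 0 on chromosomes 7, 16 and 17.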

How the data were processed

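ATAC-seq was made by the study on SUN1-GFP nuclei of PV, VIP and SST interneurons, 2 libraries each and 1 animal per library, with a Nextera preparation and single-end reads. Per the labels and the methods, the authors trimmed reads with Trimmomatic 0.33, aligned them to mm10 with Subread 1.4.6-p3, removed duplicates with samtools, called peaks per replicate with MACS2 and HOMER, kept those that both called, merged the peaks of all their cortical data sets into the reference regions and counted reads with featureCounts. The deposited table holds raw counts per region. Some of its regions overlap all the same, as at the promoters of Lhx6 and Acan. Counts of regions per gene therefore include stretches that share bases. Its conservation column is a deposited score, the mean phyloP per region, its 0 or 1 peak marks are the authors' own calls, and the deposited peak lists hold −log10 p or q values of MACS2, of which only the positions were used. Removing duplicates limits how high a short open region can count. The deposited RNA files hold UMI counts per gene and nucleus.

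Regions were tested with edgeR 4.0.16 (filterByExpr, TMM, quasi-likelihood test) in R 4.3.3, on PV against VIP without covariates, since the methods of the study state no test between 2 cell types. CPM values are counts over the library's reads in tested regions scaled by TMM. The fit had 2 residual degrees of freedom, a biological coefficient of variation of 0.0928 and 34.9 prior degrees of freedom, so the spread is largely shared over regions. On simulated counts with 200 regions changed by 2 on the log2 scale, it recovered 171 (85.5%) and made 8 false calls among 35377. Those counts had the same dispersion at every region, few changed regions and no shifts along chromosomes. The data differ in these respects, so the false calls do not measure the error rate in the data. Each region was given to the protein-coding gene (GENCODE vM21) with the nearest start, which need not be the gene it acts on. Genes named are the 10 regions of smallest p per direction, the called region of smallest p of each listed gene, and the 5 genes with most called regions per direction. The lists have 186 genes. Values of some listed genes are not reported here. Sequences were shown for the first 3 regions per direction after leaving out chromosome 18 and windows over an untranslated region, from which no sequence is printed. The members, lists and rules were chosen with earlier results of these data known. The same replicate number did not pair libraries (correlation of deviations -0.0392). RNA nuclei were gated as described in the text, the same barcode being shared by 137 to 1479 nuclei in each pair of the 10 libraries, and doublets were not removed. Alternatives covered the scaling, the filter, the tool, the replicates and the assignment to genes.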

Additional observations from a re-analysis of the deposited data

How the results depend on the processing

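Of the regions called higher in PV, 34 were called higher in VIP with offsets for windows of 10 Mb and 3 without PV replicate 2, and no other call turned direction under an alternative run. With DESeq2 size factors 11117 regions were higher in PV and 11133 in VIP, with library totals 11744 and 10464, with GC offsets 10966 and 10953, and with offsets for windows of 10 Mb, chosen after seeing the data, 10675 and 10806, under which 7 of 172 regions chosen for naming lost their call, among them those of Tac1, Adarb2, Dlx5 and Dlx6, and the Pvalb promoter gained one. More of the 172 lost it elsewhere, 26 with DESeq2, 16 for changes over 1.5-fold and 11 in a fit of all 6 libraries. Without the low-count filter edgeR called 0 and 0 of 298780 regions at a 5% false discovery rate, with 19868 and 23371 at an unadjusted p below 0.05, while DESeq2 on the filtered regions called 7486 and 7762. With at least 20 reads in each library of one cell type 6762 and 6480 of 19775 were called. Leaving out 1 library at a time gave 7288 to 9951 regions higher in PV and 9741 to 11488 higher in VIP, the lowest pair without PV replicate 1. The cause was not tested. The lone library is assumed to vary like the other cell type's pair. The fit with a replicate block gave 10536 and 10529, and since the numbers only name libraries its calls are not read as weaker effects.

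The share of PV-higher regions with phyloP over 0.5 was 19.4% with at least 20 reads, 15.5% in a fit of all 6 libraries and 15.9% for changes over 1.5-fold, and lay between 15.8% and 16.9% with 1 library left out (15.8% without VIP replicate 1, 15.9% without VIP replicate 2). The share of VIP-higher regions was 20.9% with at least 20 reads and 18.7% for changes over 1.5-fold, and the cause of these shifts was not tested. Of the regions inside a gene body, 33.4% of 22033 were higher in PV and 27.2% in VIP. When only these were counted, the PV list had 25 of 49 regions higher in PV and 6 in VIP and the MGE list 7 and 8 of 21. The VIP list had 6 and 18 of 31 and the CGE list 8 and 26 of 58. The excitatory list had 4 and 3 of 17, the astrocyte list 1 and 4 of 13, the oligodendrocyte and precursor list 10 and 3 of 19 and the vascular list 1 and 5 of 7. With DESeq2, which called 21.2% and 21.9% of all regions, the pan-interneuron counts were 8 and 11, and those higher in PV were 7 for the VIP list, 9 for the CGE list and 7 for the SST and NPY list. With 2 libraries a side, small changes at regions of few reads may have gone uncalled at this depth, and their detection was not simulated.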
